A study of Mus musculus with 2 samples.

Results

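The genes described here are 7 connexins of the mouse: Gja1, Gja3, Gja4, Gja5, Gjb2, Gjc1 and Gjc3. They were chosen by gene symbol, and all 7 listed symbols matched 1 gene each among the 55536 annotated genes of the deposited tables. The tissue was whole heart from 2 female mice of strain B6CASTF1/J at postnatal day 10. The strain name gives them as F1 offspring of C57BL/6J and CAST/EiJ parents. Total RNA was extracted with a Norgen kit for animal tissue, and 300 ng went into each library together with ERCC spike-ins, which are synthetic RNAs added in known amounts. There was 1 group with 1 library per animal, called replicates 1 and 2, and no treatment, altered allele or second condition. The labels number the animals separately and refer both to a single donor record.

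Connexins are membrane proteins that assemble in rings of subunits, called connexons. A connexon in 1 cell docks with a connexon in the next cell to form a gap junction channel, through which ions and small molecules pass. In the heart these channels carry the action potential from one muscle cell to the next. Different connexins are known for working muscle (Gja1, the gene of Cx43), for the nodes (Gjc1, Cx45), for atria, the fast conduction system and arteries (Gja5, Cx40) and for arterial endothelium (Gja4, Cx37). Gja3 (Cx46) is best known from the lens, Gjb2 (Cx26) from epithelia and the inner ear, and Gjc3 (Cx29) from myelinating glia.

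The members share the same protein plan, and the clearest mark of it at the RNA level is a stretch of coding sequence for the first extracellular loop, where connexons dock. In an alignment of the 7 coding regions, 653 columns held a base in every member and 146 of these, or 22.4%, were identical in all 7. In the 60-base stretch with the most identical bases there were 28 such columns, or 46.7%. The stretch is shown for 5 of the members in the direction of translation, from the GENCODE M21 transcripts, because it shows how near the genes are to each other where they are most alike. Capitals mark the bases that are identical in all 7 members.
Gja1: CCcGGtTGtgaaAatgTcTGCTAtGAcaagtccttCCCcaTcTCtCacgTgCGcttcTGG
Gja3: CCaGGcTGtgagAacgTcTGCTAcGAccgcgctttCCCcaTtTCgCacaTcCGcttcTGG
Gjb2: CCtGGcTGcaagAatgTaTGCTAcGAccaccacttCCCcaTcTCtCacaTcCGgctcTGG
Gjc1: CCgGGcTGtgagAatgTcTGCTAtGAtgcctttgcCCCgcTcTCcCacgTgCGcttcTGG
Gjc3: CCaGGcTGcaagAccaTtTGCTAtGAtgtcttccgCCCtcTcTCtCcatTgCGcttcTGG
In these members the stretch starts at coding base 175 in Gja1 and Gja3, at base 172 in Gjb2 and Gjc1 and at base 205 in Gjc3, counted from the first base of the start codon.

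Over the whole aligned coding regions, this stretch included, identity over the 21 pairs of members ran from 43.6% for Gjb2 and Gjc3 to 59.0% for Gja1 and Gja4, with a median of 51.4%. The coding regions ran to 382 codons in Gja1, 417 in Gja3, 333 in Gja4, 358 in Gja5, 226 in Gjb2, 396 in Gjc1 and 269 in Gjc3. In the transcript read for each gene, the coding region lay in a single exon, except in Gjc3, where it was divided over 2. Of all 31-base words in the members' transcripts, those found in any other connexin numbered 13 for Gja1, 12 for Gjc3, 3 for Gja5 and 0 for the other 4 members. All words were compared in the direction of transcription only. Words found in any other gene made up 14.2% of those of Gja5, 6.55% of Gjc3, 1.25% of Gja1 and 0.656% of Gjc1, and none for Gja3, Gja4 and Gjb2. The exons of Gja5 also overlapped those of Gpr89 on the other strand, and how strand was used in counting is not given in the sources used here.

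Replicates 1 and 2 held 40184480 and 39620519 expected counts over annotated genes. Levels are in TPM, the abundance of a gene's transcripts corrected for their length and relative to all others, as the RSEM tables give it. A gene was taken as detected at 1 TPM or more in both libraries, which held for 23.1% of annotated genes, or 12838. The tissue label was checked against heart muscle genes: Myh6, which codes for the adult-type cardiac myosin, reached 8417 and 9608 TPM, and all 6 cardiomyocyte and all 4 ventricular markers were detected. Over the detected genes the median absolute log2 ratio between the libraries was 0.097.

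Of the 7 members, 5 were detected in both hearts, at very unequal levels. Gja1 lay above 200 TPM, Gjc1 near 30, and Gja3, Gja4 and Gja5 close together near 10 in RSEM TPM, while Gjc3 and Gjb2 lay below 0.2 TPM. In whole tissue, fewer cells of a type and less RNA per cell cannot be told apart.

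Gja1 codes for Cx43, the main channel protein of working heart muscle, and lies on chromosome 10 (mm10, 56377330 to 56402513, plus strand). Replicate 1 held 291.95 TPM of it and replicate 2 held 236.18, from 27171 and 21428 counts. Its mean was 264 ± 39.4 TPM (SD, n = 2), above the level of 97.7% of the detected genes. The deposited intervals ran from 284 to 292 TPM and from 229 to 237 TPM, so the 2 hearts did not overlap. The level of that interval is not given in the sources used here, and in replicate 1 its upper bound, 291.5, lay just under the TPM value itself.

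Gjc1 codes for Cx45, a channel of low conductance known from the sinus and atrioventricular nodes and from vascular smooth muscle, and lies on chromosome 11 (102799579 to 102819700, minus strand). It stood at 30.15 and 27.73 TPM in replicates 1 and 2, from 1749 and 1577 counts, or 28.9 ± 1.71 TPM on average. The deposited intervals, 28.3 to 31.3 and 25.99 to 28.8 TPM, overlapped slightly. Its level was above that of 79.0% of the detected genes.

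Gja4 codes for Cx37 and lies on chromosome 4 (127311421 to 127314039, minus strand). Its values were 11.38 and 11.40 TPM, from 565 and 555 counts, and it was the member with the least spread between the hearts (SD 0.0141). Gja5 codes for Cx40 and lies on chromosome 3 (96904693 to 97077416, plus strand). It stood at 9.77 and 9.86 TPM, from 730.79 and 680.9 expected counts, with intervals of 8.31 to 11.1 and 8.17 to 11.4 TPM. By kallisto Gja5 stood at 15.8 and 13.99 TPM, or 14.9 ± 1.25 on average, which is over 1.5 times its RSEM level and outside both intervals. This was not particular to Gja5. Mean kallisto TPM was also higher for Gja1 (319 against 264), Gjc1 (36.7 against 28.9) and Gja4 (14.4 against 11.4). Their kallisto values lay outside their RSEM intervals as well, while the mean of Gja3 was lower by kallisto (10.5 against 11.8). In RSEM TPM, 52.9% of the detected genes lay below Gja4 and 48.1% below Gja5.

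Gja3 codes for Cx46, a channel of lens fibre cells, and lies on chromosome 14 (57034460 to 57058100, minus strand). It stood at 11.08 TPM in replicate 1 and 12.54 in replicate 2, from 697 and 745 counts, with overlapping intervals (9.56 to 12.6 and 10.8 to 14.2 TPM). In RSEM TPM that was as high as Gja4 and Gja5, the vascular and conduction connexins. By kallisto Gja3 stood at 9.96 and 10.97 TPM, below both. Of 5 lens genes, 0 were detected and 4 had 0 counts in both libraries (Bfsp1 stood at 0.33 and 0.39 TPM). No 31-base word of Gja3 was found in another gene's transcripts in the same orientation, and no exon of another gene overlapped it. Words in the opposite orientation were not compared.

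Gjc3 and Gjb2 were near the limit of counting. Gjc3, on chromosome 5 (137953461 to 137963098, minus strand), held 18 and 11 counts, or 0.15 and 0.09 TPM. As a share of counts this was 0.448 CPM (counts relative to the library total) in replicate 1 (exact 95% binomial interval 0.265 to 0.708) and 0.278 in replicate 2 (0.139 to 0.497). These intervals cover counting error only. By kallisto, the other quantification of the same libraries, the counts were 39.5 and 22.4. Gjb2, on chromosome 14 (57098600 to 57104702, minus strand), held 3 counts in replicate 1 and 0 in replicate 2. A count of 0 allowed up to 3 counts, or 0.0757 CPM, so no fold between the hearts is given for it.

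Markers of the cells best known for these low members were low as well. Of 9 Schwann cell markers 2 were detected, and the list summed to 11.7 and 6.09 TPM. Among its leading genes the myelin gene Mbp stood at 2.60 and 1.88 TPM and Prx, the gene of periaxin, at 1.26 and 0.76. Of 7 epithelial markers 0 were detected, with a summed level of 1.32 and 1.47 TPM and Krt14 highest at 0.72 and 0.79. What part these cells had in the few counts of Gjc3 and Gjb2 was not tested.

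**Figure D1:**
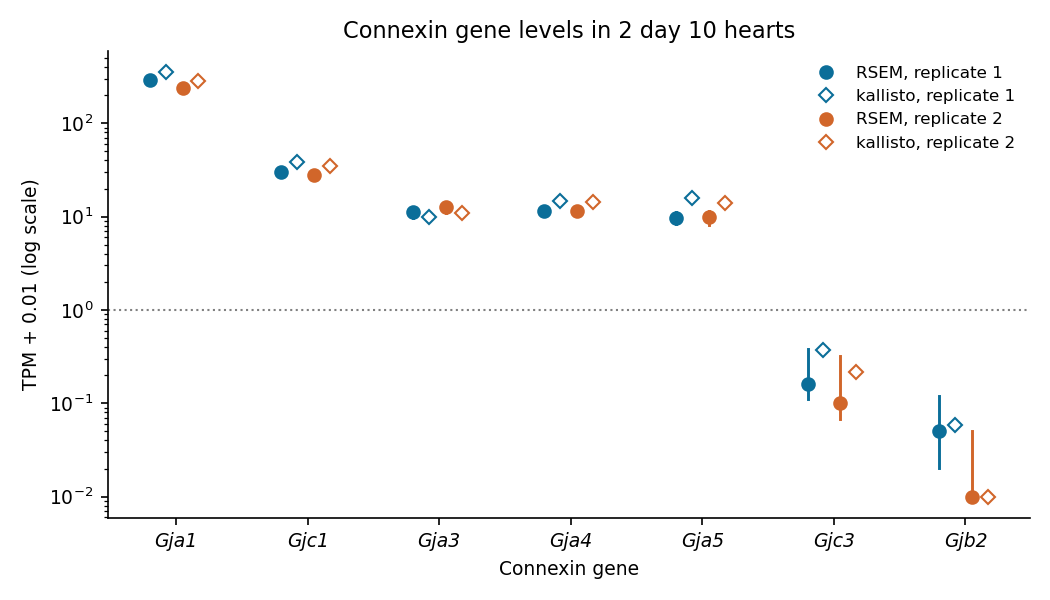
Level of each connexin in TPM + 0.01 on a log axis, with genes ordered by mean level. Filled circles are RSEM values with the deposited interval as a line, open diamonds are kallisto values, blue is replicate 1 and orange replicate 2, and the dotted line marks 1 TPM. By RSEM, Gja1 (292 and 236 TPM) and Gjc1 (30.15 and 27.73) stood above the other members. Gja3, Gja4 and Gja5 lay between 9.77 and 12.54 by RSEM, and by kallisto Gja4 and Gja5 lay higher, between 13.99 and 15.8. Gjc3 and Gjb2 lay under the line by both methods.

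The mouse annotation holds 20 connexins in all, and the other 13 added little. None of the 13 was detected, and 6 had 0 TPM in both libraries. Together they summed to 1.63 and 1.58 TPM, against 356 and 299 TPM for the whole family. Gja1 alone made up 81.97% of the summed connexin TPM in replicate 1 and 78.9% in replicate 2, or 80.4% ± 2.18. Gjc1 followed with 8.86% ± 0.564, then Gja3 with 3.65% ± 0.762, Gja4 with 3.50% ± 0.433 and Gja5 with 3.02% ± 0.389. By kallisto the Gja1 share was 80.1% ± 1.76, a difference smaller than the spread between the hearts. Of the pannexins, channel proteins with the same topology but little sequence kinship to connexins, Panx1 was the only one of 3 detected, at 3.83 and 3.59 TPM.

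The order of the members was read from ratios within each library, as log2 of TPM + 0.1. Members were taken as apart when the ratio pointed the same way in both hearts and its mean was larger than 3 SD. With 2 animals the smallest exact p is 0.5, so no p is given. By this rule 19 of 21 pairs were apart. Gja1 was 9.05-fold above Gjc1 (log2 3.18 ± 0.13), and Gjc1 was 2.44-fold above Gja3 (1.29 ± 0.21) and 2.53-fold above Gja4 (1.34 ± 0.087). Gja1 over Gja5, the connexin of working muscle against that of atria, fast conduction system and arteries, stood at 26.5-fold (4.73 ± 0.23).

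Within the group near 10 TPM the order was not settled. Gja3 and Gja4 differed by less than their spread (log2 0.05 ± 0.12). Gja3 and Gja5 differed by more than 1 SD but were not apart by the 3 SD rule (0.26 ± 0.12). Gja4 lay above Gja5 by a small and even margin (0.22 and 0.21, or 1.16-fold), but this turned to −0.05 ± 0.10 with kallisto TPM and to −0.33 with counts not scaled by length. With kallisto Gja3 lay below both, at −0.46 relative to Gja4 and −0.50 relative to Gja5. The margin of Gjc3 over Gjb2 (0.88) rests on the pseudocount of 0.1, and no fold is given for that pair.

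The transcripts behind these levels were read from both sets of transcript tables. The 7 genes have 22 annotated transcripts. Gja4 and Gjb2 have only 1 each. Among the 5 genes with several transcripts, the leading one was the same by RSEM and kallisto for 3 and differed for Gja1 and Gjc1, the members with the highest levels.

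For Gja1, the methods named different first exons. By RSEM, Gja1-201 held 97.96% of the gene's TPM in replicate 1 and 97.48% in replicate 2, and Gja1-206 held 0 counts in both. By kallisto, Gja1-206 held 15667 and 11037 counts, or 51.7% and 45.9% of TPM, and Gja1-201 held 45.6% and 51.0%. The 2 transcripts start 1758 bases apart, at 56377330 and 56379088, and share the same coding region (56387547 to 56388692). Of their 31-base words only 30 of 3041 in Gja1-201 and 28 of 3152 in Gja1-206 are found in no other transcript of the members. Their first exons (56377330 to 56377518 and 56379088 to 56379387) do not overlap each other. A further transcript, Gja1-204 (56377332 to 56380750), covers nearly all of both, so the words of these exons count as shared. The count thus does not measure how alike Gja1-201 and Gja1-206 are. The part that shared words had in the difference between the methods was not tested. The sum over the gene's transcripts by kallisto, 354 and 284 TPM, was higher in replicate 1, as it was by RSEM. The deposited tables thus gave no split between the 2 starts that was the same by both methods, while the order of the hearts was.

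For Gjc1, the same held for 2 starts 521 bases apart. Gjc1-202 (start at 102819700) held 80.0% and 83.65% of the gene's TPM by RSEM. By kallisto, Gjc1-201 (start at 102819179) held 79.95% and 61.0%, and Gjc1-202 held 8.58% and 25.99%. Both carry the same coding exon (102799988 to 102801175). Here the kallisto shares also differed more between the hearts than the RSEM shares did, with an SD of 12.3 against 2.55 percentage points for Gjc1-202.

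Short transcripts made up part of the TPM of Gja3 and Gja5. Gja3-202, a fragment of 284 bases, held 17 and 21 counts but 26.5% and 29.5% of the gene's TPM by RSEM, and 0 by kallisto. Gja5-202, of 405 bases, held 21.73 and 26.18 counts and 23.2% and 28.3% of the gene's TPM by RSEM, and 41.0% and 36.3% by kallisto. Without transcripts under 500 bases, a choice made after seeing the data, the level of Gja3 was 8.49 ± 0.495 TPM, that of Gja5 7.29 ± 0.297, and that of Gja4 remained at 11.4. Gja4 then lay above Gja3 (−0.42 ± 0.081 for log2 Gja3 over Gja4). The last Gja5 transcript, Gja5-203, starts 127723 bases upstream and differs in its last coding exon. It held 13.44 and 7.31 counts by RSEM and 76.5 and 94.4 by kallisto.

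**Figure D2:**
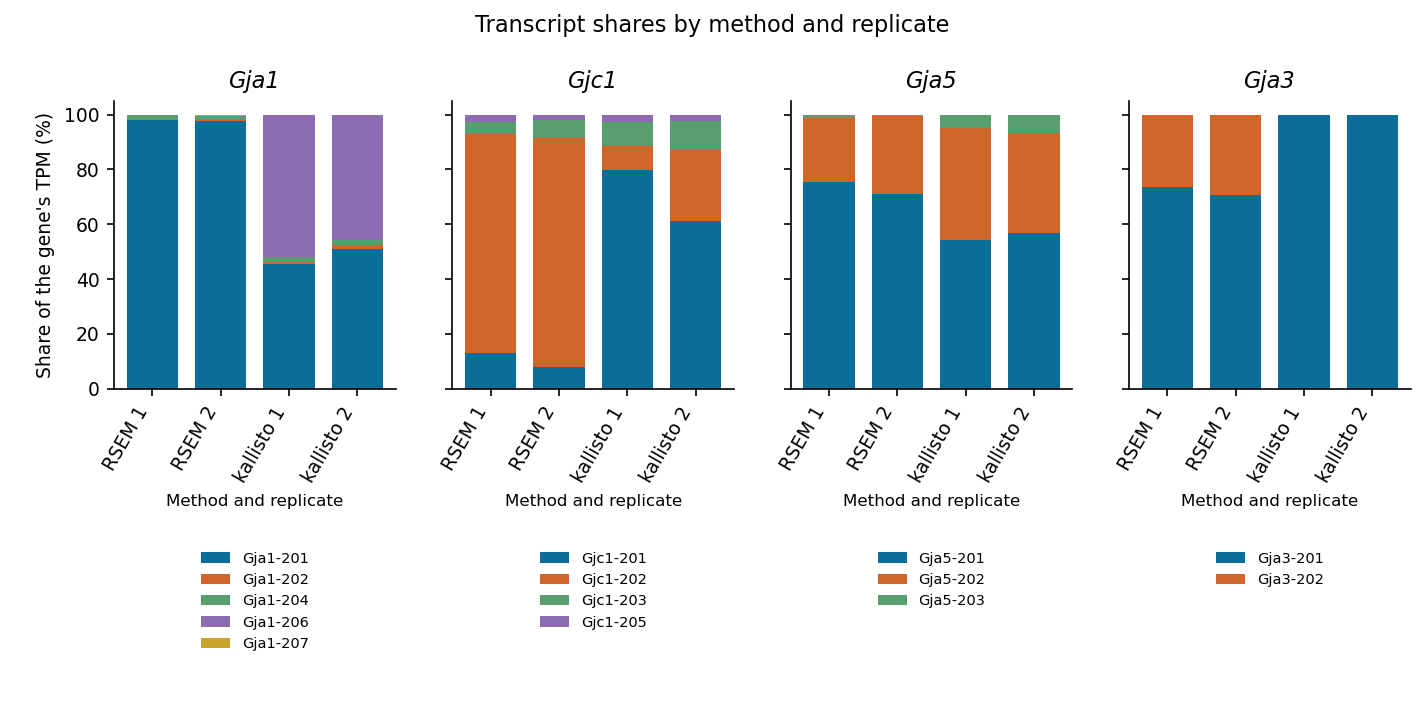
Share of each gene's TPM by transcript, in percent, for the 4 members with several transcripts and a level above 1 TPM. Each bar is 1 library by 1 method, and colours are the transcripts listed under each panel. For Gja1 the bars were almost all Gja1-201 by RSEM and close to even between Gja1-201 and Gja1-206 by kallisto, and for Gjc1 the leading colour changed between the methods.

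The members lie on 6 chromosomes, and a pair of them are direct neighbours with very different levels. Gja3 and Gjb2 lie 40.5 kb apart on chromosome 14 with no protein-coding gene between them, and stood at 11.08 and 12.54 against 0.04 and 0 TPM.

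The 250 bases before the start were read for the members with an entry in the RefSeq promoter table (build GRCm38.p6), which covered 6 of the 7 members with 7 starts, and not Gjc1. Both strands were searched for 5 motifs, none of which contains another. They were the core promoter element TATAAA, the GC element GGGCGG, the core AGGTGT bound by T-box factors, AGATAA, bound by Gata4 and its relatives, and TNAAGTG, bound by Nkx2-5. The promoters of 3 members are shown: that of Gja1 as the member with the highest level, that of Gja5 as the atrial and conduction connexin, and that of Gjb2 as the member at the counting limit. Each runs 5′ to 3′ on the strand of the gene, and capitals mark the matches.
Gja1, chr10:56377050-56377299, plus strand: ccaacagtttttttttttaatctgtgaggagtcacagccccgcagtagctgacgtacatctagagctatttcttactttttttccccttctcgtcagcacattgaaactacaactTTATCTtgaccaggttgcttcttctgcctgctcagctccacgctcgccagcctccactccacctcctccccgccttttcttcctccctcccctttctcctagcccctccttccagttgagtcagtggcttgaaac
Gja5, chr3:97032152-97032401, plus strand: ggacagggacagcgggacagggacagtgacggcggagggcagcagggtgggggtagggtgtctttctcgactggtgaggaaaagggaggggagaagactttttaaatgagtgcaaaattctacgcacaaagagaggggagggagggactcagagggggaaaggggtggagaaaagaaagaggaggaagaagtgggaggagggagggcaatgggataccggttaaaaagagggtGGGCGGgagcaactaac
Gjb2, chr14:57104703-57104952, minus strand: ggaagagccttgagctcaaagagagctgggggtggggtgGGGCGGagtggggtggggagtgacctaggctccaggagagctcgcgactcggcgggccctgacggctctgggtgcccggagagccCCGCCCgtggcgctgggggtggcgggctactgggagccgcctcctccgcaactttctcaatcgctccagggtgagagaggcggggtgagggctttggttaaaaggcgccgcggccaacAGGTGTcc

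The promoter of Gja1 held 1 AGATAA match, on the other strand, and 6 CpG sites, the same number as the median of all 32851 promoters. That of Gja5 held 1 GGGCGG match and 7 CpG sites. The promoter of Gjb2, a gene with 3 and 0 counts, held 2 GGGCGG matches (1 on each strand), 1 AGGTGT match and 18 CpG sites, more than 78.3% of all promoters. Among all promoters, 9.99% held AGATAA, 32.7% GGGCGG, 11.8% AGGTGT, 12.4% TATAAA and 10.1% TNAAGTG, which among the members had a match only in the promoter of Gjc3, with 1. A match is a description of the letters and not a binding site.

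The hearts were next compared by a two-sided exact binomial test on the counts of each gene. Adjustment by Benjamini-Hochberg ran over the 16517 genes that held 20 or more counts in sum. This compares 2 libraries of the same group and covers counting error only, so it says nothing of conditions. Calls needed an adjusted p under 0.05 together with a ratio of 2-fold or more. This held for 216 genes, or 1.31% of those tested, with 0.630% higher in replicate 2 and 0.678% lower. Of the 6 members that could be tested, 0 were called, and 0 were called at 1.5-fold, where the share over all genes was 2.83% (1.54% higher in replicate 2 and 1.30% lower). At an unadjusted p under 0.05 with no fold threshold, 2 of the 6 passed, Gja1 and Gjc1, against 27.5% of all genes tested. Gjb2 had too few counts.

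Gja1 was the member with a clear difference between the hearts. It was lower in replicate 2 by 1.23-fold (log2 −0.30, counting SE 0.0132), with an adjusted p of 5.6e-115 by the exact binomial test. Of all genes tested, 17.6% had an adjusted p under 0.05 with no fold threshold. Of the detected genes, 11.3% differed by more than Gja1 did. Gjc1 was 1.08-fold lower (−0.11 ± 0.050 counting SE, adjusted p 0.123 by the same exact test), Gja5 differed by −0.06 (0.686), Gja4 by 0.01 (0.972), Gja3 by 0.14 (0.245) and Gjc3 by −0.65 with a counting SE of 0.54 (0.531). These 5 members did not pass with TMM scaling. With ERCC totals, Gjc1 had an adjusted p of 0.000146 in the exact test at −0.22, where the median of all genes tested was −0.105.

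Cell markers moved between the hearts beside these values. All 8 atrial markers had higher values in replicate 2, with a median log2 ratio of 0.86 against 0.002 over all genes tested. Their summed level was 549 TPM in replicate 1 and 1002 in replicate 2. Nppa, atrial natriuretic peptide, had 247 TPM in replicate 1 and 463 in replicate 2, and the light chains Myl7 (146 and 256) and Myl4 (104 and 197) and Dkk3 (17.8 and 24.0) had higher values too. Bmp10 (9.35 and 20.2 TPM) was the 1 called. Gja5, known as the atrial connexin, had a log2 ratio of −0.06 between the hearts, and its log2 ratio to Nppa was −4.65 in replicate 1 and −5.54 in replicate 2. Gja1 relative to Tnnt2, a troponin of all heart muscle cells, was −3.37 and −3.75, and relative to Cdh5, an endothelial cadherin, 1.14 and 0.86. Tnnt2 and Cdh5 themselves had log2 ratios of only 0.08 and −0.03 between the hearts, so ratios to them largely repeat the difference in Gja1. The part that the share of atrial tissue had in the lower Gja1 of replicate 2 was not tested.

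Conduction markers, known for cells with Gja5 and Gjc1, were low, and by scaled counts 8 of 9 tested had the higher value in replicate 2. In TPM, Cacna1g and Scn10a (0.33 and 0.26) had the lower value there, and Scn10a is named for that reason. Of 10 markers 5 were detected. Cacna1g itself stood at 16.7 and 13.0 TPM, Cacna2d2 at 2.93 and 4.49, Hcn4 at 1.75 and 2.58 and Cntn2 at 1.03 and 1.94. The list's median log2 ratio was 0.43, against −0.06 for Gja5 and −0.11 for Gjc1.

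Of the vascular markers, those of the cells best known for Gja4, 0 were called between the hearts. All 8 endothelial markers were detected with 0 called and a median of 58.6 ± 1.46 TPM, led by Cdh5 (132 and 130), Egfl7 (131 and 116), Pecam1 (86.1 and 89.8) and Kdr (64.6 and 64.1). Of 9 arterial endothelial markers 8 were detected and 0 called, with a median of 9.01 ± 1.85 TPM, in the range of Gja4 and Gja5. Efnb2 stood at 20.1 and 21.7 TPM, Unc5b at 18.96 and 19.2, Mecom at 14.4 and 14.5 and Dll4 at 11.3 and 12.02. The 10 smooth muscle and pericyte markers, from cells known to hold Gjc1, were all detected with 0 called and a median of 27.9 ± 0.325 TPM.

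**Figure D3:**
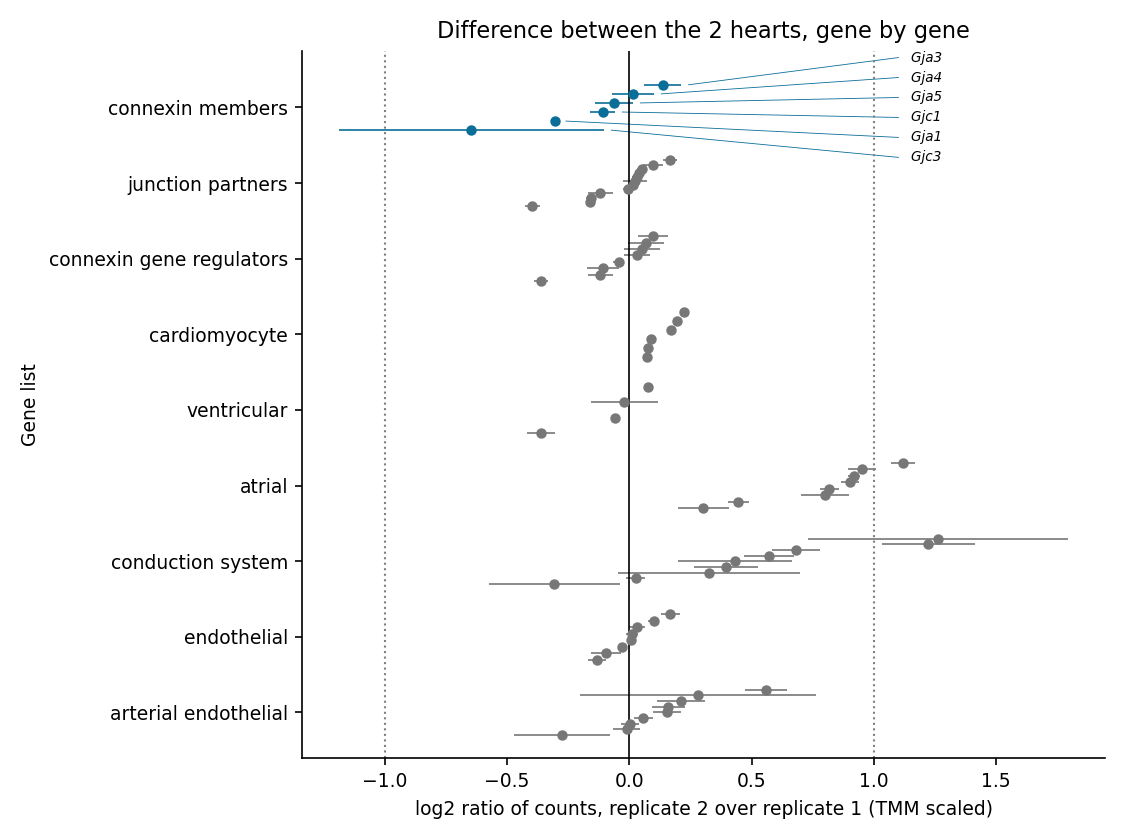
log2 ratio of counts, replicate 2 over replicate 1, after TMM scaling, for the tested members and for role and marker lists. Each point is a gene, lines are the counting SE and dotted lines mark 2-fold. The connexins (blue, named at the right) lay between −0.65 and 0.14, while the atrial markers lay to the right of 0.

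Genes that act on connexins were read from lists of their roles. Genes listed as junction partners, among them genes of the intercalated disc, were all 12 detected, with a median of 57.4 ± 7.91 TPM. Ctnnb1, beta catenin, stood at 283 and 281 TPM, Cav1, a coat protein of caveolae, at 226.7 and 231.7, Cdh2, the cadherin of the disc, at 145 and 129, and Jup, plakoglobin, at 115 and 115. Gja1 was thus near the level of Ctnnb1, in TPM, and Gjc1 below that of all 4.

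The 11 genes of connexin trafficking and turnover were likewise all detected, with a median level of 22.8 ± 0.375 TPM. The ubiquitin ligase Nedd4, which acts on Cx43, stood at 228 and 219 TPM. Dctn1 (51.4 and 52.2) and Mapre1 (50.1 and 42.4) code for proteins at growing microtubule ends, along which Cx43 is delivered to the junction, and Erp29 (45.4 and 45.9) for a chaperone of the endoplasmic reticulum. So were the 10 kinases known to phosphorylate connexins, with a median level of 36.5 ± 0.824 TPM. Prkaca stood at 173 and 177 TPM, Akt1 at 143 and 141 and Camk2d at 79.1 and 72.8.

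Each of the 8 transcription regulators of connexin genes was detected, and their median level was 14.7 ± 0.117 TPM. Hopx, a homeodomain protein without DNA binding, stood at 223 and 216 TPM, and Gata4 at 74.3 and 57.6. Nkx2-5, a factor for Gja5 and the conduction system, stood at 37.5 and 34.3, and Irx3, known to repress Gja1 and raise Gja5 in the fast conduction system, at 17.9 and 18.0. In all 4 role lists 0 genes were called between the hearts, and the median log2 ratios lay between −0.01 and 0.04, against 0.002 over all genes tested.

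**Figure D4:**
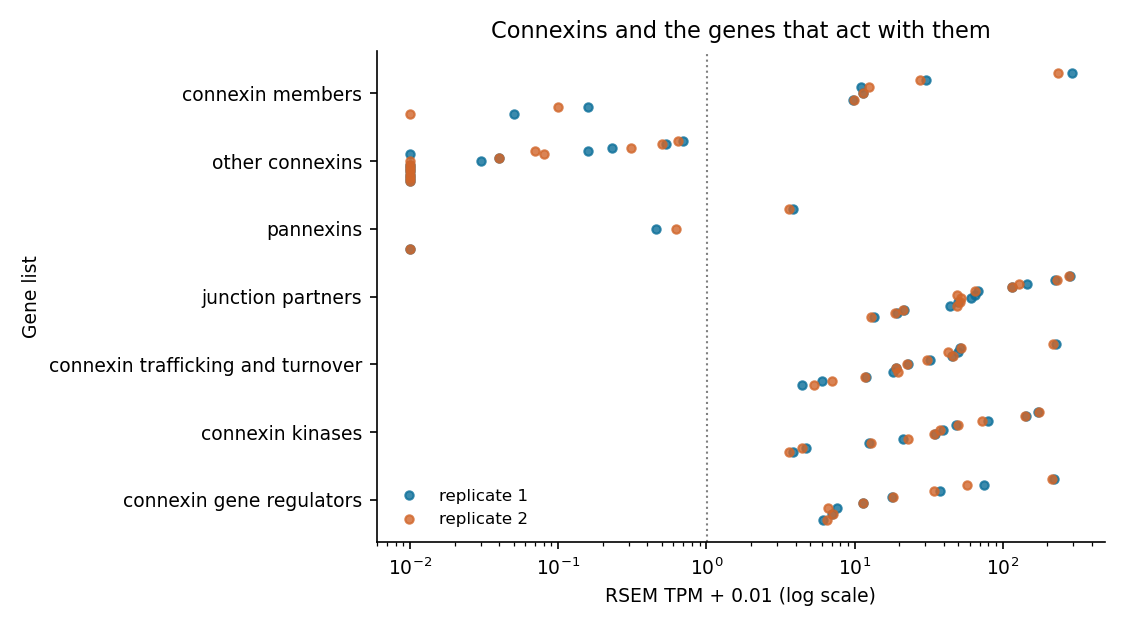
RSEM TPM + 0.01 on a log axis for the connexins, the other 13 connexins, the pannexins and the genes that act with connexins. Each point is a gene in 1 library, with replicate 1 in blue and replicate 2 in orange, and the dotted line marks 1 TPM. All genes of the lower 4 lists lay right of the line, the other 13 connexins all lay left of it, and the members lay on both sides.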

How the data were processed

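Total RNA of 2 hearts was sequenced, 1 library each. The authors deposited, on mm10 with GENCODE M21 per the accompanying text, gene and transcript tables with expected counts, TPM and interval bounds in TPM, whose headers are those of RSEM. The deposited transcript table also holds each transcript's percent of its gene's TPM, per the file headers. A second transcript table that the authors deposited holds estimated counts and TPM under headers of kallisto. For tool versions, read length and interval level, nothing is given in the sources used here. Per the file, the gene tables hold 26248 numeric entries that name no gene, with 3.84 and 2.92 expected counts. These and the spike-ins entered neither library sizes nor tests.

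Expected counts were rounded to whole numbers and scaled by TMM (edgeR 4.0.16, R 4.3.3, size factors of DESeq2 1.42.0 as an alternative). The libraries were then compared with an exact binomial test (scipy 1.17.1, prior count 0.5 in ratios), since edgeR's quasi-likelihood test has no residual degrees of freedom with 1 library a side. Counts for this comparison were also simulated with counting error only, and genes changed 3-fold were drawn from those with 200 or more counts in sum. Over 16482 genes, 200 of 200 changed genes were called, with 0 false calls. The simulation covers neither the spread between animals nor changes in genes with fewer counts. The p-values of the exact binomial test, the counting SE and the exact 95% intervals of shares cover counting error only. Python 3.11.15, pandas 2.3.3 and matplotlib 3.10.9 were used.

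The members, the lists and the rule for named genes were chosen with earlier results of these data known. All 7 members are named, each other connexin or pannexin that was detected, the 4 genes of highest mean TPM in a list and those called. Some genes and sequences that this rule covers are not reported here. Alternatives were kallisto values, other scalings, pseudocounts of 0.01 and 1, detection at 0.5 and 2 TPM, no count minimum, a 1.5-fold threshold and leaving out each library.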

Additional observations from a re-analysis of the deposited data

How the results depend on the processing

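The number of members detected remained 5, and 0 were called, under every alternative run for these counts. The share of Gja1 in the summed connexin TPM ran from 78.9% to 82.0% with either library left out. The number of pairs apart ran from 18 to 20 over all alternatives. The direction of 6 of 147 pair ratios turned. Log2 Gja3 over Gja4 was −0.46 with kallisto, −0.42 without transcripts under 500 bases, which was chosen after seeing the data, and ran from −0.038 to 0.14 with either library left out. With counts left unscaled by length it was 0.36, and apart. Log2 Gja3 over Gja5 was −0.50 with kallisto, and Gja4 over Gja5 was −0.046 with kallisto and −0.33 with unscaled counts. Gjc3 over Gjb2 was no longer apart at a pseudocount of 0.01 (2.50 ± 1.16). Of 35 recomputed levels, 14 moved by more than the SD between the hearts, 6 of them upward with TPM rescaled over nuclear protein-coding genes, where Gja1 stood at 625 TPM. The log2 ratio of Gja4 between the libraries was −0.00016 with DESeq2 size factors, −0.0053 with total counts and −0.093 with ERCC totals. The cause was not tested.

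At a 1.5-fold threshold, which admits smaller ratios, 468 genes were called in place of 216. With ERCC totals, 249 genes were called, of which 34.5% were higher in replicate 2 against 48.1% with TMM. The median log2 ratio of all genes tested then moved from 0.002 to −0.105. Every ratio moves by the same amount under this scaling. Gjc1 then reached an adjusted p of 0.000146 in the exact binomial test at a log2 ratio of −0.22. No paired analysis was possible because there is only 1 group. With 2 libraries, levels have an SD from 1 degree of freedom, and Gjc3 and Gjb2, at 18 counts or fewer per library, are limited by counting.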

Other observations

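The remaining marker lists show what else was called between the hearts, where 0 connexins were. Adipocyte genes were all 4 called lower in replicate 2 (median log2 ratio −2.71), and the 3 erythroid genes were all called higher (1.23). In the 7 epicardial, 6 fibroblast and 6 macrophage markers 0 were called, with median log2 ratios of −0.19, 0.04 and 0.24. Heart muscle genes moved in both directions. The 6 cardiomyocyte markers all had the higher value in replicate 2 (median log2 ratio 0.13, 0 called). Of the 4 ventricular markers 3 had the lower value there (median −0.04, 0 called), with Irx4 at −0.36. Gata4 stood at −0.36 and Pkp2, a desmosome gene named here after its value was seen, at −0.40, beside −0.30 for Gja1.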
